A study of Homo sapiens with 6 samples.

Results

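The genes described here encode the coat of caveolae: the caveolins CAV1 and CAV2, the cavins PTRF (now CAVIN1), SDPR (CAVIN2) and PRKCDBP (CAVIN3), and the neck ATPase EHD2. They were taken by symbol, 6 genes of the 23355 in the deposited table of read counts. The table covers HFL-1, an established human fibroblast line of fetal lung origin. Cells received non-targeting control siRNA (siNTC), siTAZ #1 or siTAZ #2, which are different siRNAs against TAZ, the transcriptional coactivator encoded by WWTR1. RNA was collected 48 h later from 2 libraries per group, 6 in all, which the design calls biological replicates, and the groups shared the cell line, the transfection reagent and the culture conditions. The groups thus stand for transient transfections of a single line.

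Caveolae are small flask-shaped pits of the plasma membrane that are abundant in fibroblasts, endothelial cells, adipocytes and muscle. Caveolins insert into the inner leaflet as oligomers and bind cholesterol, cavins assemble around them as a peripheral coat, and EHD2 forms rings at the neck that hold the pit at the surface. Caveolae flatten when the membrane is stretched and have been tied to mechanical sensing and to the handling of growth factor receptors, and CAV1 is well known for its low level in fibrotic lung.

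On GRCh37, CAV2 (chr7:115927434-116148595) and CAV1 (chr7:116165048-116201233) lie next to each other on the plus strand of chromosome 7. Their start sites, those of the canonical transcripts, are close, with that of CAV2 at -25.3 kb from that of CAV1. SDPR (chr2:192699036-192711814), PRKCDBP (chr11:6340176-6341762) and PTRF (chr17:40554467-40575274) lie on the minus strand of 3 other chromosomes, and EHD2 (chr19:48216679-48246391) lies on the plus strand of chromosome 19. The promoter windows of 4 of these genes are shown because CAV1 and CAV2 are neighbours whose mRNAs moved differently, EHD2 was the other strongly lowered gene, and SDPR was the gene that rose. Each window runs from 250 bases before to 50 bases after a RefSeq start site and was placed on GRCh37 by an exact match. Windows were found for CAV1, CAV2, SDPR and EHD2, and PTRF and PRKCDBP are named only. Capitals mark GGAATG, the core motif of the TEAD factors through which TAZ acts.
CAV1 (chr7:116164840-116165139, plus strand): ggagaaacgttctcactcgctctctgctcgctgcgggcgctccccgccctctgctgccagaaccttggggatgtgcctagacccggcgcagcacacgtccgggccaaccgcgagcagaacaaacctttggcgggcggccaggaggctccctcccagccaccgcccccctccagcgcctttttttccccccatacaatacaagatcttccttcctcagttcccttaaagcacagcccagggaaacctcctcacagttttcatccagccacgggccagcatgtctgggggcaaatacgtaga
CAV2 (chr7:116139542-116139841, plus strand): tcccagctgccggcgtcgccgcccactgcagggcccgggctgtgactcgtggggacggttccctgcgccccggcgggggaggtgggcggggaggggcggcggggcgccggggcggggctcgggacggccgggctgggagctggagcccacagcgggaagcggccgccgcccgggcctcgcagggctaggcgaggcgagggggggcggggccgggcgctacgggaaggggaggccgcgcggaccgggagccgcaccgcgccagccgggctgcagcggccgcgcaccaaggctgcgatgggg
EHD2 (chr19:48216429-48216728, plus strand): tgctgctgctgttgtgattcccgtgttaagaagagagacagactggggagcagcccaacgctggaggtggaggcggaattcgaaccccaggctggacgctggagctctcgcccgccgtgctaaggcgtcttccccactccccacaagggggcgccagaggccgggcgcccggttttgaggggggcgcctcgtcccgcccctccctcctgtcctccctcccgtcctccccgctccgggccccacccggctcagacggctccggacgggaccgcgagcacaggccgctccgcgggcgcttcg
SDPR (chr2:192711765-192712064, minus strand): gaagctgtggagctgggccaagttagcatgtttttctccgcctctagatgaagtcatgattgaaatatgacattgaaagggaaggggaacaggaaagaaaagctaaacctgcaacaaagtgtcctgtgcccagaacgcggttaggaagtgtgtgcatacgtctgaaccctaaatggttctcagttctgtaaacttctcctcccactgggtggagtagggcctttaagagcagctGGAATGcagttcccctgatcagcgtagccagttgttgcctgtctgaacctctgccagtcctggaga
GC content was 61.7% in the CAV1 window, 82.7% in the CAV2 window, 71.0% in the EHD2 window and 49.3% in the SDPR window, against a median of 58.7% over 35116 windows of the same length. On either strand, GGAATG occurred once, in the SDPR window, starting at position -16 from the start site. It occurs in 14.0% of all windows. The AP-1 motif TGANTCA, present in 7.71% of all windows, and the CArG box, present in 1.29%, had no match in any window of these 4 genes, the alternative start sites of CAV1 and CAV2 included. These letters describe the windows alone and do not show or exclude binding there or elsewhere.

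The libraries held between 15648055 and 32078188 counts. The lowest count of any of the 6 genes in any library was 694, for PRKCDBP, where counting alone gives a coefficient of variation of 3.8%. In siTAZ #1 replicate 2, counts were nearly missing from RANGAP1 on chromosome 22 to the end of chromosome Y, and none of the 6 genes lies there. The 576 tested genes of that stretch stayed in the fit, which pools the spread over genes. Results of a fit that left out this stretch before the filter are given for CAV2 and in the closing section. Levels are given as CPM, the counts of a gene relative to the TMM-scaled total of its library. FDR stands for the p-value of edgeR's quasi-likelihood test adjusted by Benjamini and Hochberg's method across the tested genes, and a gene is called when it is under 0.05. WWTR1 checked the labels: it was at 132.2 and 130.8 CPM with siNTC, 26.39 and 28.4 CPM with siTAZ #1, and 46.09 and 43.06 CPM with siTAZ #2, and the remaining level was lower with siTAZ #1 (log2 difference -0.70, FDR 0.005). Of the markers of cell types that a fibroblast culture could hold or that are rich in caveolae, 10 fibroblast genes summed to 43000 to 43090 CPM with siNTC, 31480 to 33800 CPM with siTAZ #1 and 33350 to 35110 CPM with siTAZ #2. Its single genes did not share a direction: 4 were called lower and 2 higher with siTAZ #1, and 6 lower and 2 higher with siTAZ #2. Of all genes tested, 9.78% were called lower and 10.8% higher with siTAZ #1, and 14.4% and 14.1% with siTAZ #2. PDGFRA rose with siTAZ #1 (log2 fold change 1.72, FDR 0.00084), PDGFRB rose with both siRNAs (0.39, FDR 0.02, and 0.54, FDR 0.0051) and THY1 rose with siTAZ #2 (0.50, FDR 0.01). COL1A2, the largest part of the sum with siNTC, had a mean of 12440 CPM there, 6173 CPM with siTAZ #1 and 7282 CPM with siTAZ #2. It is on the study's own list of genes lowered by both siRNAs, which was drawn from these libraries. The sum was lower where CAV1 and EHD2 were lower, and its part in their change was not tested. Of 7 endothelial markers, 5 were under 1 CPM in every library, and their sum of 26.78 to 47.42 CPM was nearly all TEK. Adipocyte markers summed to at most 1.51 CPM, and skeletal muscle markers to at most 7.61 CPM. Epithelial markers summed to 13.88 to 22.17 CPM and leukocyte markers to 38.33 to 75.81 CPM, the latter nearly all CD68, with the other 4 leukocyte markers under 1 CPM.

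The coat genes did not move as a group after TAZ knockdown. CAV1 fell 4.48-fold with siTAZ #1 and 3.11-fold with siTAZ #2. EHD2 fell with both siRNAs but more with siTAZ #2, and the log2 fold changes of the other 4 genes lay between -0.33 and 0.69. With siTAZ #1, 3 of the 6 genes were called lower at an FDR under 0.05 (CAV1, PTRF and EHD2), beside 9.78% of the 14053 genes tested. SDPR alone was called higher, beside 10.8% of all genes, and CAV2 and PRKCDBP were not called. With siTAZ #2, CAV1 and EHD2 were called lower, 2 of 6 beside 14.4% of all genes. None was called higher there, beside 14.1% of all genes. At an unadjusted p under 0.05 the count of higher genes with siTAZ #2 was also 0, while PTRF joined the lower genes. The share of all genes at that unadjusted cutoff was not computed. DESeq2 called 2 coat genes with siTAZ #2, beside 2535 of 14053 genes lower and 2407 higher. The exact test of edgeR called 4, with CAV2 (0.30, FDR 0.031) and PRKCDBP (0.31, FDR 0.034) higher. Of all 13754 genes in that test, 3165 were called lower and 3259 higher. A fit of the 4 libraries called 5 coat genes, beside 3024 of 13754 genes lower and 3073 higher. With siTAZ #1 the exact test called CAV1 alone, beside 492 of 13710 genes lower and 569 higher. The median log2 fold change of the 6 genes was -0.03 with siTAZ #1 and -0.01 with siTAZ #2, beside 0.02 and 0.01 over all genes tested. All 4 siTAZ libraries lay below both siNTC libraries for CAV1, PTRF and EHD2, which holds for 17.5% of all genes. They lay above both for CAV2 and SDPR, which holds for 18.6%, and the groups overlapped for PRKCDBP. Both comparisons share the siNTC libraries, so that their values are not independent. In bulk RNA, fewer cells that express a gene and less RNA per cell cannot be told apart.

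**Figure D1:**
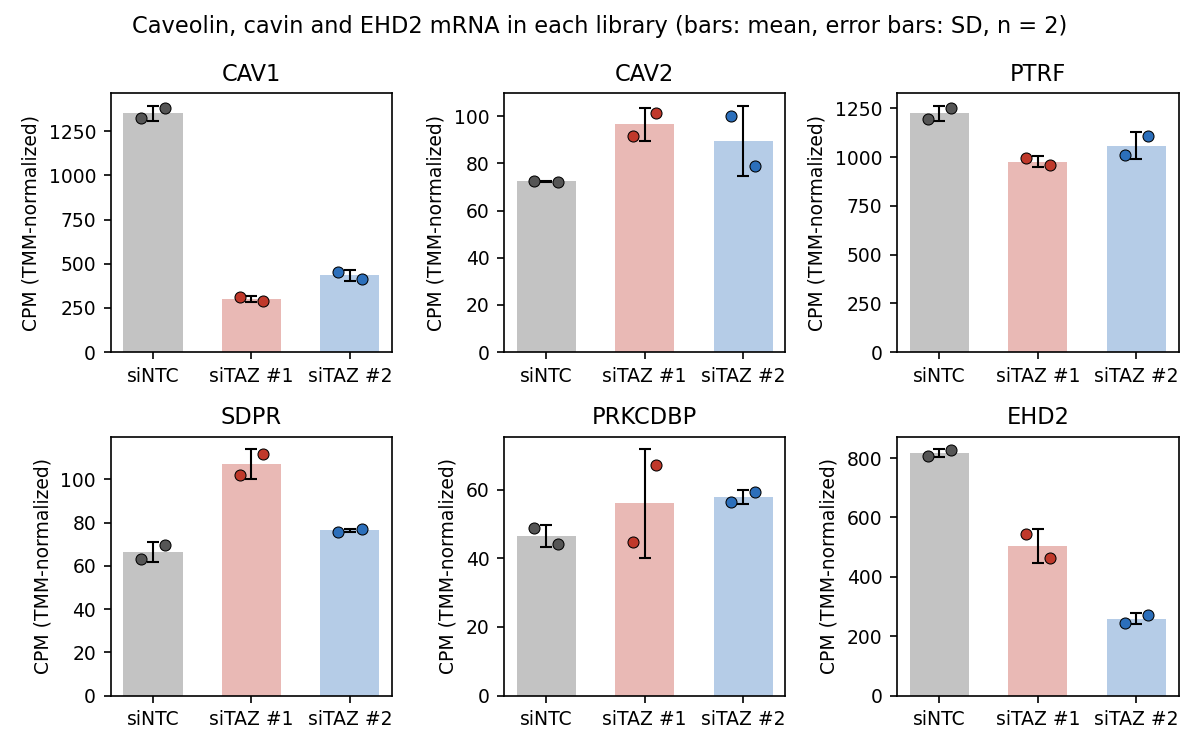
TMM-normalized CPM of the 6 genes in each library (points), with the mean of each group as a bar and the SD as an error bar (n = 2), each panel on its own linear axis from 0. CAV1 fell from 1352 CPM to 301.8 and 434.8 CPM and EHD2 from 816 CPM to 504.6 and 258.8 CPM, while CAV2 and SDPR lay above their siNTC libraries in every siTAZ library.

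CAV1 encodes caveolin 1, without which non-muscle cells form no caveolae. It was at 1323 and 1382 CPM with siNTC, at 313.9 and 289.7 CPM with siTAZ #1, and at 456.2 and 413.4 CPM with siTAZ #2. The highest siTAZ library lay far below the lowest siNTC library. The libraries of the siRNAs did not overlap either, though the share of all genes with the 3 groups apart was not computed. The log2 fold change of CAV1 with siTAZ #1 was -2.16 (standard error 0.09, 95% confidence interval -2.39 to -1.94, FDR 0.00058), a 4.48-fold lower level. That with siTAZ #2 was -1.64 (standard error 0.09, interval -1.86 to -1.41, FDR 0.00063), a 3.11-fold lower level. CAV1 held rank 47 of 14053 genes by level with siNTC. By log2 fold change it was the 105th lowest gene with siTAZ #1 and the 327th lowest with siTAZ #2. The share of all counts that fell on CAV1 went from 0.13% and 0.135% with siNTC to between 0.0294% and 0.0465% with siTAZ. CAV1 belongs to the study's own list of genes lowered by both siRNAs, which was drawn from these libraries, so that list is not independent evidence of its direction.

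The fall of CAV1 was larger with siTAZ #1 than with siTAZ #2 when the siRNAs were compared directly, with a log2 difference of -0.53 (standard error 0.09, interval -0.75 to -0.31, FDR 0.0092). This difference was no longer called without siTAZ #2 replicate 1 (log2 difference -0.45, FDR 0.057) or by the exact test of edgeR (-0.52, FDR 0.3). The calls against siNTC held in each of the 18 alternative analyses, with FDRs of at most 0.022 and 0.017.

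CAV2 encodes caveolin 2, which needs caveolin 1 to leave the Golgi and joins it in hetero-oligomers. Its level was 72.52 and 72.32 CPM with siNTC, 91.62 and 101.5 CPM with siTAZ #1, and 100.1 and 79.12 CPM with siTAZ #2. All 4 siTAZ libraries were thus above the siNTC libraries, and the siTAZ groups overlapped each other. The log2 fold change of 0.42 with siTAZ #1 (interval 0.09 to 0.74, FDR 0.08) and that of 0.31 with siTAZ #2 (interval -0.02 to 0.63, FDR 0.14) did not pass the threshold. With siTAZ #1, DESeq2 called CAV2 higher (0.41, FDR 0.02), as did the fit without the genes of the near-missing region (0.40, FDR 0.03). Neither called CAV2 with siTAZ #2 (0.30, FDR 0.1, and 0.31, FDR 0.072). Without siTAZ #1 replicate 1, CAV2 was called higher with both siRNAs (log2 fold changes 0.49 and 0.30, FDRs 0.0099 and 0.045). Without siTAZ #1 replicate 2 it was called higher with siTAZ #2 (0.31, FDR 0.042). An offset for GC content lowered the value with siTAZ #1 to 0.16 (FDR 0.26) and that with siTAZ #2 to 0.20 (FDR 0.14), and without siTAZ #2 replicate 1 the value with siTAZ #2 was 0.13 (FDR 0.53). The direct comparison gave a log2 difference of 0.11 (interval -0.22 to 0.43, FDR 0.59), and the intervals of both siRNAs against siNTC leave out a fall of the size seen for CAV1.

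PTRF encodes cavin 1, the cavin required for caveolae in all tissues. It was at 1197 and 1252 CPM with siNTC, at 997.8 and 957.5 CPM with siTAZ #1, and at 1009 and 1109 CPM with siTAZ #2. The siTAZ libraries lay below the siNTC libraries, by a margin that was small next to that of CAV1. With siTAZ #1 the log2 fold change was -0.33 (standard error 0.09, interval -0.53 to -0.12, FDR 0.046), just inside the threshold, and -0.21 with siTAZ #2 (interval -0.42 to -0.0012, FDR 0.12). The call with siTAZ #1 was lost in 8 of the 18 alternatives, among them the exact test (FDR 0.63) and the fits without siNTC replicate 1 (FDR 0.18), siNTC replicate 2 (0.25), siTAZ #2 replicate 1 (0.072) and siTAZ #2 replicate 2 (0.068). With siTAZ #2, PTRF was called lower without siTAZ #1 replicate 1 or without siTAZ #1 replicate 2 (FDR 0.029 each). The siRNAs did not differ at the threshold (log2 difference -0.12, interval -0.32 to 0.09, FDR 0.37).

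SDPR encodes cavin 2, which helps to shape the caveolar membrane and binds phosphatidylserine. It stood at 63.27 and 69.8 CPM with siNTC, at 102.2 and 111.9 CPM with siTAZ #1, and at 75.82 and 76.95 CPM with siTAZ #2. No group overlapped another, and siTAZ #1 was the highest, but the share of all genes so separated was not computed. SDPR rose with siTAZ #1 by 0.69 on the log2 scale (standard error 0.10, interval 0.45 to 0.93, FDR 0.0073), a 1.61-fold higher level. With siTAZ #2 the log2 fold change was 0.20 (interval -0.04 to 0.44, FDR 0.18). The direct difference between the siRNAs was 0.49 (standard error 0.10, interval 0.25 to 0.73, FDR 0.015). The rise with siTAZ #1 was not called without siNTC replicate 1 (0.61, FDR 0.077) or siNTC replicate 2 (0.75, FDR 0.057), and the difference was not called without siTAZ #2 replicate 1 (0.48, FDR 0.081) or siTAZ #2 replicate 2 (0.51, FDR 0.075). The exact test called neither (FDRs 0.17 and 0.33).

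PRKCDBP encodes cavin 3, a cavin that was first described as a binding protein of protein kinase C delta. Its 6 libraries read 48.81 and 44.24 CPM with siNTC, 44.78 and 67.08 CPM with siTAZ #1, and 56.37 and 59.25 CPM with siTAZ #2. Both siTAZ #2 libraries were above siNTC, while the siTAZ #1 libraries lay on either side of siTAZ #2. The log2 fold changes of 0.27 with siTAZ #1 (interval -0.23 to 0.76, FDR 0.4) and 0.31 with siTAZ #2 (interval -0.18 to 0.81, FDR 0.29) did not pass, and neither did the difference of -0.05 (interval -0.54 to 0.45, FDR 0.89). The value with siTAZ #1 rested on which library was kept: without siTAZ #1 replicate 1 it was 0.53 (FDR 0.0064), and without siTAZ #1 replicate 2 it was -0.06 (FDR 0.84). With siTAZ #2 it was called higher without siTAZ #1 replicate 1 (0.31, FDR 0.047) or replicate 2 (0.31, FDR 0.049), and an offset for GC content turned its direction (-0.25, FDR 0.33). Its transcript had the highest GC content of the 6, at 66.7%. An unnamed long noncoding RNA on the opposite strand overlaps exons of PRKCDBP, and CAVIN2-AS1 overlaps exons of SDPR. The strand setting of the counting is not given in the sources used here, and neither noncoding RNA has an entry in the table, so reads of these pairs cannot be told apart.

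EHD2 encodes a dynamin-like ATPase that stabilises caveolae at the cell surface. It measured 806.4 and 825.6 CPM with siNTC, 545.6 and 463.6 CPM with siTAZ #1, and 245.8 and 271.9 CPM with siTAZ #2. The 3 groups were fully apart, a trait whose share over all genes was not computed. The order of the siRNAs was the opposite of that for CAV1. EHD2 fell by 0.69 on the log2 scale with siTAZ #1 (standard error 0.11, interval -0.96 to -0.43, FDR 0.0094), a 1.62-fold lower level. It fell by 1.66 with siTAZ #2 (standard error 0.11, interval -1.92 to -1.39, FDR 0.00069), a 3.15-fold lower level. The siRNAs differed by 0.96 (standard error 0.11, interval 0.70 to 1.23, FDR 0.0025). EHD2 was the 1872nd lowest gene by log2 fold change with siTAZ #1 and the 315th lowest with siTAZ #2. The fall with siTAZ #1 was not called without siNTC replicate 1 (-0.72, FDR 0.08) or siNTC replicate 2 (-0.69, FDR 0.086), nor in the exact test (-0.71, FDR 0.14), while the fall with siTAZ #2 and the difference were called in each of the 18 alternatives.

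In the direct comparison of the siRNAs, CAV1 was thus the gene called lower with siTAZ #1 (1 of 6, beside 13.4% of all genes), and SDPR and EHD2 were those called higher (2 of 6, beside 15.2%). CAV1 followed the order of WWTR1, which was also lower with siTAZ #1, and EHD2 went the other way. The remaining 3 genes had log2 differences between -0.12 and 0.11, beside a median of -0.01 over all genes.

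**Figure D2:**
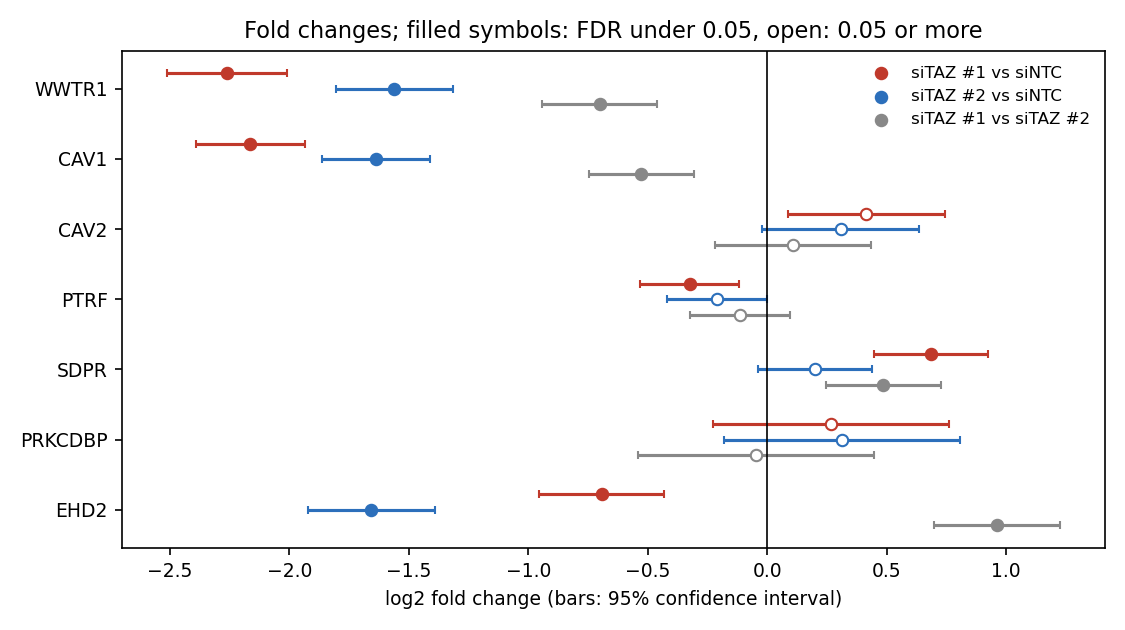
Log2 fold changes of WWTR1 and the 6 genes (points) with 95% confidence intervals (bars) for siTAZ #1 against siNTC (red), siTAZ #2 against siNTC (blue) and siTAZ #1 against siTAZ #2 (grey). Filled points have an FDR under 0.05: CAV1 and EHD2 are filled in the 3 comparisons, with grey points on opposite sides of 0 (-0.53 and 0.96), and CAV2 and PRKCDBP are open throughout.

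Levels of different genes were compared as CPM per kb of the canonical transcript. With siNTC the order was CAV1 at 550.6 CPM per kb, PTRF at 343.1, EHD2 at 232.7, PRKCDBP at 45.26, CAV2 at 24.53 and SDPR at 21.79, and no neighbours in this order overlapped. Caveolin 1, cavin 1 and EHD2 thus had the abundant mRNAs of the coat in these fibroblasts, and the other 3 genes lay well below. With siTAZ #1, PTRF led at 273.8 CPM per kb, followed by EHD2 at 143.9 and CAV1 at 122.9. PRKCDBP (54.4), SDPR (35.04) and CAV2 (32.7) came next, of which SDPR and CAV2 overlapped. With siTAZ #2 the order was PTRF at 296.6 CPM per kb, CAV1 at 177, EHD2 at 73.83, PRKCDBP at 56.24, CAV2 at 30.34 and SDPR at 25.01, again without overlap between neighbours. CAV1 went from the first place to the third with siTAZ #1 and to the second with siTAZ #2. The first place with siNTC depended on the length used: per kb of all annotated exons, CAV1 (349.6) and PTRF (343.1) overlapped with siNTC, and SDPR was above CAV2 in every group.

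Ratios of counts within a library do not depend on the scaling between libraries. The ratio of CAV1 to PTRF was 1.1 in both siNTC libraries, 0.315 and 0.303 with siTAZ #1, and 0.452 and 0.373 with siTAZ #2. The caveolin and cavin mRNAs at the core of the coat therefore did not keep their proportion in any of the 4 siTAZ libraries. The ratio of CAV1 to CAV2 was 18.2 and 19.1 with siNTC, 3.43 and 2.85 with siTAZ #1, and 4.56 and 5.23 with siTAZ #2. Per kb, CAV1 made up 95.6% and 95.8% of the caveolin mRNA counted here (CAV1 and CAV2) with siNTC, 80.5% and 77.4% with siTAZ #1, and 84.6% and 86.3% with siTAZ #2. CAV1 remained the larger part of it in every library.

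The ratio of CAV1 to EHD2 set the siRNAs apart. It was 1.64 and 1.67 with siNTC and 1.86 and 1.52 with siTAZ #2, whose libraries lay on either side of the siNTC libraries, but 0.575 and 0.625 with siTAZ #1. The ratio of EHD2 to PTRF was 0.673 and 0.659 with siNTC, 0.547 and 0.484 with siTAZ #1, and 0.244 and 0.245 with siTAZ #2. Among the cavins, the ratio of SDPR to PTRF was 0.0528 and 0.0557 with siNTC and at least 0.0694 in each siTAZ library, with the highest value, 0.117, in siTAZ #1 replicate 2. The ratio of PRKCDBP to PTRF was 0.0408 and 0.0353 with siNTC and 0.0449 to 0.0701 with siTAZ. PTRF made up 83.1% and 84.2% of the mRNA of these 3 cavins per kb with siNTC and 72.5% to 78.9% with siTAZ. Summed over the 6 genes, the share of all counts was 0.346% and 0.356% with siNTC and 0.198% to 0.208% in the siTAZ libraries.

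**Figure D3:**
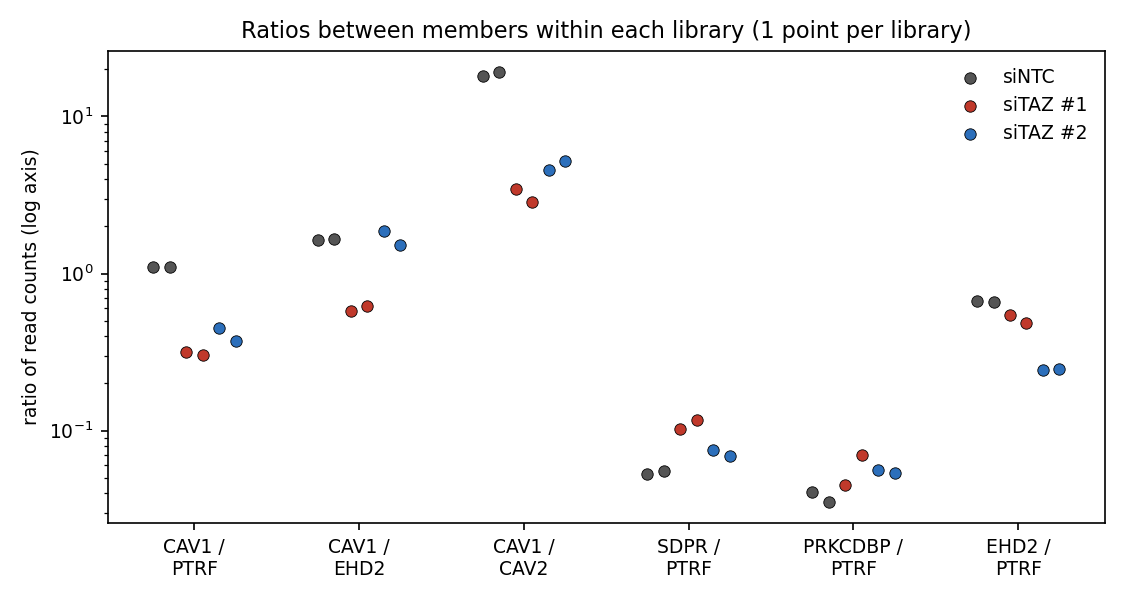
Ratio of read counts between pairs of coat genes within each library (points, 1 per library, on a log axis) for siNTC (grey), siTAZ #1 (red) and siTAZ #2 (blue). CAV1 to PTRF is at 1.1 with siNTC and at most 0.452 with siTAZ, and CAV1 to EHD2 lies at 0.575 and 0.625 with siTAZ #1 while siTAZ #2 lies around siNTC.

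CAV1 and CAV2 are neighbours, so the genes around them were examined within 500 kb. The tested genes besides the caveolins were TES, MET, CAPZA2, ST7 and ST7-AS1. TFEC and ST7-OT4 did not pass the filter. TES, which encodes the focal adhesion protein testin and starts at -314.5 kb from CAV1, had log2 fold changes of -0.27 (FDR 0.21) and 0.39 (FDR 0.075) with siTAZ #1 and siTAZ #2. MET, the receptor of hepatocyte growth factor, starts 147.2 kb downstream of CAV1. It rose with siTAZ #1 (log2 fold change 0.52, FDR 0.024) and fell with siTAZ #2 (-0.49, FDR 0.023), and the siRNAs differed by 1.01 (FDR 0.0024). CAPZA2, an actin capping protein subunit, had log2 fold changes of 0.43 (FDR 0.25) and 0.21 (FDR 0.55), and ST7 had -0.05 (FDR 0.85) and -0.18 (FDR 0.45). ST7-AS1, at 2.56 CPM with siNTC, had wide errors (-0.73, standard error 0.73, and -1.61, standard error 0.77). Of the 7 tested genes in this stretch, CAV1 was the one called lower with both siRNAs. Of all genes tested, 9.78% were called lower with siTAZ #1 and 14.4% with siTAZ #2. The share called lower with both was not computed.

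**Figure D4:**
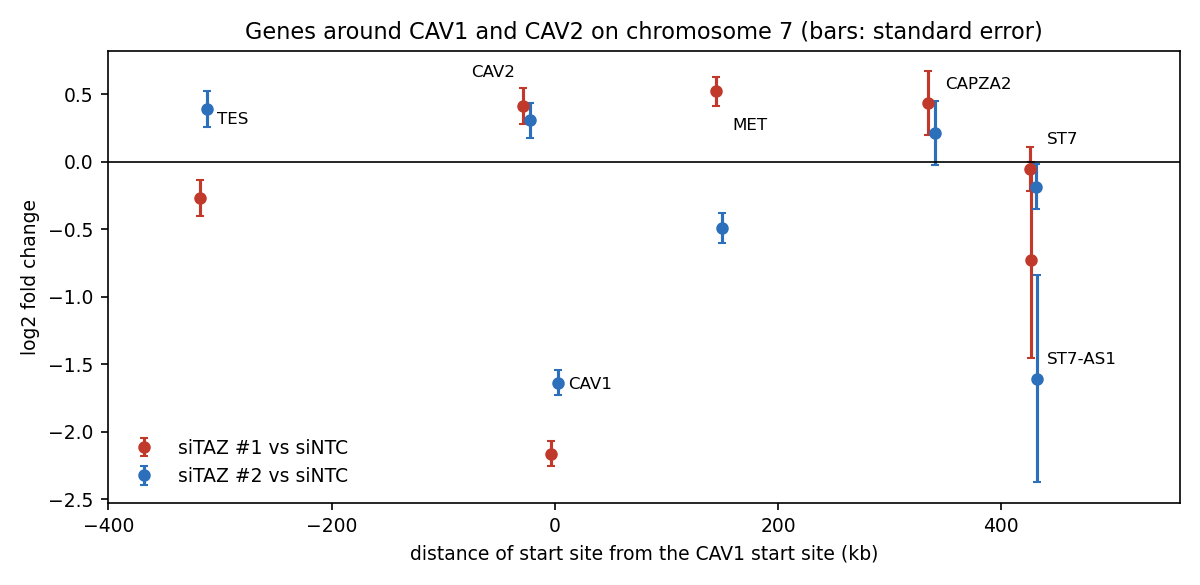
Log2 fold change against siNTC (points, with the standard error as bars) of the 7 tested genes within 500 kb of CAV1 and CAV2, by the distance of each start site from that of CAV1 in kb, for siTAZ #1 (red) and siTAZ #2 (blue). CAV1, at 0, lies at -2.16 and -1.64, while CAV2, at -25.3 kb, lies at 0.42 and 0.31.

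The likeness of patterns was measured as the root mean square difference of log2 levels over the 6 libraries, each gene centred on its siNTC mean, against 14052 other genes. This describes 6 points that share libraries and carries no test. The gene most like CAV1 was WWTR1 itself, the knocked-down gene, at 0.0995 log2 units, followed by PCK2 (0.147), a mitochondrial enzyme of gluconeogenesis, and CCBE1 (0.186), a secreted factor of lymphatic growth. EHD2 ranked 385th for CAV1 (0.851), PTRF 3215th, PRKCDBP 9543rd, CAV2 10186th and SDPR 11051st. The genes most like EHD2 were SNHG1, ENPP2 and TGFB3, at 0.0435 to 0.0805. For CAV2 they were SNX25, ATP5G3 and ATP6V1H, and SDPR and PRKCDBP ranked 847th and 885th for it. The nearest genes were UPF1, PSAP and GALK2 for PTRF, CEP170, ZNF598 and PDPR for SDPR, and BRD7, MNAT1 and NRGN for PRKCDBP. No coat gene was among the 3 genes nearest to another. Among 14052 genes, 3 places would seldom hold 1 of so few coat genes, so this says little about them.

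Of 10 other genes that act at caveolae, 8 were tested, and the muscle caveolin CAV3, at 0 to 3 counts, and PACSIN1, at 1 to 7 counts, were below the filter. With siTAZ #1, 1 of the 8 was called higher (10.8% of all genes) and 0 lower by edgeR (9.78% of all genes). At an unadjusted p under 0.05, 2 were lower, a cutoff at which the share of all genes was not computed. DESeq2 called 1 gene in all, and the exact test of edgeR called 0. With siTAZ #2, 2 were called higher (14.1% of all genes) and 2 lower (14.4%). The median log2 fold change of the list was -0.08 and 0.04, and without PACSIN2 and FLNA, whose counts were nearly missing in siTAZ #1 replicate 2, it was 0.13 and 0.27. PACSIN3, a membrane-curving F-BAR protein, was called higher with both. It was at 19.65 and 19.88 CPM with siNTC, at 28.9 and 26.1 CPM with siTAZ #1 and at 36.6 and 38.9 CPM with siTAZ #2 (log2 fold changes 0.48, FDR 0.045, and 0.93, FDR 0.0043). With siTAZ #2, EHD4 (-0.61, FDR 0.0055) and EHD1 (-0.28, FDR 0.037), relatives of EHD2 that work on endosomes, were lower, and EHD3 (0.38, FDR 0.049) was higher. Their log2 fold changes with siTAZ #1 were -0.29 (FDR 0.07), -0.23 (FDR 0.075) and 0.21 (FDR 0.24). The muscle cavin MURC, at 15 to 79 counts, had log2 fold changes of 0.98 (FDR 0.11) and 0.87 (FDR 0.12), and DNM2, the dynamin of many cells, had 0.06 and 0.16.

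PACSIN2, the F-BAR protein of the caveolar neck in most cells, and FLNA, an actin crosslinker that anchors caveolae, lie where the counts of siTAZ #1 replicate 2 were nearly missing. PACSIN2 had 1257 and 1288 counts with siNTC, 937 and 18 with siTAZ #1, and 1616 and 1287 with siTAZ #2. Without siTAZ #1 replicate 2, its log2 fold change was -0.41 with siTAZ #1 (FDR 0.03) and -0.07 with siTAZ #2 (FDR 0.6). FLNA fell in that fit with both siRNAs, by 0.24 with siTAZ #1 (FDR 0.042) and by 0.77 with siTAZ #2 (FDR 1.2e-08), and the siRNAs differed by 0.54 (FDR 2.9e-05). The siTAZ #1 group then held 1 library, which was taken to vary like the other groups.

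Signaling proteins reported to bind caveolins or to sit in caveolae gave a list of 12, of which 11 were tested and NOS3, at 6 to 18 counts, was not. With siTAZ #1, 4 of the 11 were lower and 1 was higher, beside 9.78% and 10.8% of all genes. With siTAZ #2, 4 were lower and 2 were higher, beside 14.4% and 14.1%, and the medians were 0.13 and -0.20. The receptor TGFBR1 was called higher with both. It went from 13.95 and 14.89 CPM with siNTC to 97.87 and 103.6 CPM with siTAZ #1 and to 70.25 and 70.97 CPM with siTAZ #2, log2 fold changes of 2.80 (FDR 0.00044) and 2.29 (FDR 0.00041). EGFR, the receptor of epidermal growth factor, was lower with both (-0.33, FDR 0.042, and -0.44, FDR 0.013). IGF1R, the receptor of insulin-like growth factors, was called in opposite directions, lower with siTAZ #1 (-0.59, FDR 0.012) but raised by siTAZ #2 (0.46, FDR 0.02), with a direct difference of -1.05 (FDR 0.0016).

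Flotillins, raft proteins outside caveolae, and their relatives STOM, PHB, PHB2, ERLIN1 and ERLIN2 were taken for comparison. With siTAZ #1, 1 of the 7 was called lower and 2 higher (9.78% and 10.8% of all genes). With siTAZ #2, 4 were lower and 1 higher (14.4% and 14.1%), and the medians were -0.08 and -0.58. PHB2 was lower with both siRNAs (-0.52, FDR 0.045, and -0.66, FDR 0.017). STOM was higher with siTAZ #1 (0.52, FDR 0.012) and lower with siTAZ #2 (-0.78, FDR 0.0025), and ERLIN1 likewise (0.38, FDR 0.04, and -0.58, FDR 0.008). Of 12 genes of clathrin endocytosis, the main other route of uptake at the membrane, 2 were called lower and 1 higher under siTAZ #1 (9.78% and 10.8% of all genes). Under siTAZ #2, 3 were called lower and 2 higher (14.4% and 14.1%), and the medians were 0.04 and 0.00. PICALM, a clathrin assembly protein, was called in opposite directions (0.48, FDR 0.038, and -1.05, FDR 0.0026). Over the alternatives, the number of called genes with siTAZ #1 and with siTAZ #2 ranged from 0 to 3 and from 1 to 5 for the other caveolae genes, and from 1 to 7 and from 2 to 7 for the signaling proteins. It ranged from 0 to 4 and from 2 to 5 for the flotillins, and from 0 to 4 and from 2 to 7 for the clathrin genes. For each list and siRNA the lowest number was reached without siNTC replicate 1 and without siNTC replicate 2, whichever was left out. The number of all genes called also moved with the setting, so these ranges are not particular to the lists. With siTAZ #1 the exact test called 492 lower and 569 higher of 13710 genes, and DESeq2 1858 and 2076 of 14053. With siTAZ #2 they called 3165 and 3259 of 13754, and 2535 and 2407 of 14053.

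**Figure D5:**
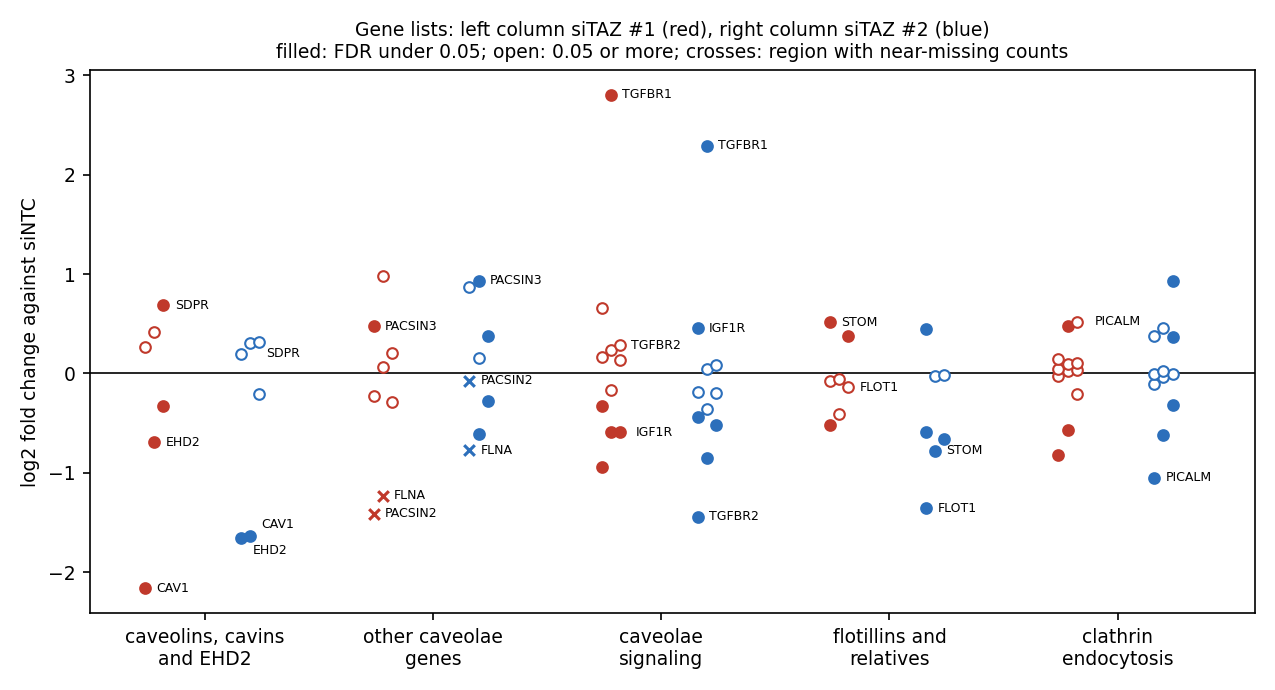
Log2 fold change against siNTC of each tested gene of 5 lists, with siTAZ #1 in red on the left and siTAZ #2 in blue on the right of each list. Filled circles have an FDR under 0.05, open circles do not, and crosses mark PACSIN2 and FLNA, whose counts were nearly missing in siTAZ #1 replicate 2. CAV1 lies at -2.16 and -1.64, EHD2 at -0.69 and -1.66, and TGFBR1 at 2.80 and 2.29.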

How the data were processed

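RNA sequencing reads of 6 HFL-1 libraries (siNTC, siTAZ #1 and siTAZ #2, 2 each) were aligned by the authors to hg19 with TMAP and counted per gene with HTSeq 0.6.1, and the deposited values are raw read counts without normalization. The strand setting is not given in the sources used here. Of 23368 entries, 13 hold a date in place of a symbol and were left out (0.0458% to 0.0506% of counts). Library totals were 15990711 and 16210968 (siNTC), 15648055 and 32078188 (siTAZ #1), and 21009532 and 16447069 (siTAZ #2).

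Here the counts were filtered with filterByExpr, scaled by TMM and fitted once for the 6 libraries with edgeR 4.0.16 in R 4.3.3, whose quasi-likelihood test gave the p-values. The Benjamini-Hochberg method adjusted them over 14053 genes, and an FDR under 0.05 was called. Standard errors and 95% confidence intervals came from the same fit, and the scripts were tested on simulated data. Counting errors cover counting alone. With 2 libraries per group, no permutation can reach a p under 0.05. Within groups, libraries differed beyond sampling noise (mean chi-square per gene 5.74 to 25.2). Positions, lengths and GC content came from GENCODE on GRCh37, and promoter sequences from RefSeq.

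The genes and lists were chosen with earlier results of these data known. Named genes were the 6 coat genes, WWTR1, the tested genes within 500 kb of CAV1 and CAV2, the 3 genes most like each coat gene, and from each list those called with both siRNAs. Members of the list of other caveolae genes were described beyond that rule, after their values were seen. Alternatives were DESeq2 1.42.0, the exact test of edgeR, fits of 4 libraries, 3 other scalings, 2 other filters and a replicate block. Others were an offset for GC content (known for 95.5% of the genes tested), leaving out each library, and FDR 0.1. Another dropped the genes of the near-missing region before the filter, so that 13457 genes were tested. A crossed replicate block was chosen after seeing the data.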

Additional observations from a re-analysis of the deposited data

Results flagged for a closer look

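For 3 of the 6 coat genes the siRNAs differed in a direct test of siTAZ #1 against siTAZ #2 in edgeR's fit of the 6 libraries. CAV1 was lower with siTAZ #1, with a log2 difference of -0.53 (FDR 0.0092), which was not called without siTAZ #2 replicate 1 (FDR 0.057) or in edgeR's exact test (FDR 0.3). SDPR was higher with siTAZ #1, with a log2 difference of 0.49 (FDR 0.015), which was not called when replicate 1 (FDR 0.081) or 2 (FDR 0.075) of siTAZ #2 was left out, or in the exact test (FDR 0.33). EHD2 was also higher with siTAZ #1, with a log2 difference of 0.96 (FDR 0.0025), which was called in each of the 18 alternatives, with FDRs of at most 0.025. The libraries of the siRNAs did not overlap for these 3 genes, which were picked by the direct test on the same libraries. The lack of overlap thus adds no support, and its share over all genes was not computed.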

How the results depend on the processing

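Calls of CAV1 against siNTC, of EHD2 with siTAZ #2 and of the EHD2 difference between the siRNAs held under the 18 alternatives. The settings differed in how many of all genes they called, so the counts of coat genes below are not a property of these genes alone. The number of coat genes called with siTAZ #1 was 4, and 1 in the exact test on 4 libraries, with 1 to 6 when each library was left out in turn (1 without siNTC replicate 1 or 2). With siTAZ #2 it was 2, but 4 in the exact test and 5 in a fit of 4 libraries. Between the siRNAs it was 3, and 1 in the exact test. That exact test called 703 lower and 795 higher of all 13961 genes, against 1883 and 2137 of 14053 in the fit of 6 libraries. An offset for GC content reversed the log2 difference between the siRNAs for CAV2 (-0.047), PTRF (0.057) and PRKCDBP (0.29) and the value of PRKCDBP with siTAZ #2 (-0.25), none of them called. With siTAZ #2 that offset called 3 coat genes, with PTRF lower (-0.34, FDR 0.015), beside 2188 of 13418 genes lower and 2005 higher. With siTAZ #1, DESeq2 called 5 coat genes, beside 1858 of 14053 genes lower and 2076 higher. The fit without the genes of the near-missing region also called 5 with siTAZ #1, with PTRF at FDR 0.012. Of all 13457 genes it called 1998 lower and 2115 higher. Leaving out a library moved the CAV2 difference between -0.042 and 0.29, PRKCDBP with siTAZ #1 between -0.056 and 0.53, and the PRKCDBP difference between -0.36 and 0.22. The cause was not tested. The replicate numbers did not pair the libraries (r of replicate differences -0.006, 0.010 and -0.18), and a replicate block called 3, 2 and 3 coat genes, without PTRF with siTAZ #1 (FDR 0.098). Over all genes it called 823 lower and 868 higher with siTAZ #1, against 1374 and 1515. The crossed replicate block also called 3, 2 and 3 coat genes, and 1256 lower and 1378 higher genes with siTAZ #1. Over the other settings, the genes called with siTAZ #1 ranged from 277 lower and 279 higher (without siNTC replicate 2) to 2604 and 2496 (without siTAZ #1 replicate 1). No scaling moved the median of all genes by over 0.1.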
